A study of Rattus norvegicus with 6 samples.

Results

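The unfolded protein response is described here through 10 genes chosen by name: the sensors Ern1 and Atf6, the transcription factors Xbp1, Atf4 and Ddit3, the chaperones Hspa5, Hsp90b1 and Dnajb9, and the degradation factors Herpud1 and Sel1l. They are 10 of the 17388 genes counted, and all 10 were found in every table used. The values come from enterocyte nuclei of rat colon, with T cell nuclei of the same animals as background. The 9 animals were wildtype male Wistar rats whose colon was flash frozen before nuclei were isolated for single nuclei RNA sequencing. The 3 placebo and the 3 PL8177 rats drank 5% dextran sulfate sodium (DSS), a polymer toxic to the colon epithelium, over 3 days before returning to normal water. Placebo rats next received vehicle capsules and PL8177 rats capsules with 50 µg PL8177, an agonist of the melanocortin-1 receptor, in both cases by gavage 2 times a day for 4 days. The 3 sham rats had plain drinking water and no capsules are stated for them, so sham differs from placebo in DSS and, as far as stated, in the capsules. The study asked how the drug acts on the injured colon. The 3 treatment comparisons below share their rats pairwise and are not independent.

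Proteins made for secretion or for membranes fold in the endoplasmic reticulum (ER). When unfolded proteins build up there, the sensors IRE1 (the product of Ern1), ATF6 and PERK (the product of Eif2ak3) are activated: IRE1 splices the Xbp1 transcript, ATF6 is cut into an active transcription factor, and PERK slows translation and favours ATF4. The factors then induce ER chaperones, ER-associated degradation (ERAD), which sends misfolded proteins to the proteasome, and, under lasting stress, CHOP (the product of Ddit3). Intestinal epithelium secretes and renews itself heavily, and loss of XBP1 in it is a known cause of enteritis in mice. Nuclear RNA counts, introns included, report transcript levels and do not show splicing of Xbp1, cleavage of ATF6 or protein.

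The ER stress response element (ERSE) is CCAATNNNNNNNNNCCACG, and its relative ERSE-II is ATTGG and CCACG with 1 base between them. Both are among the DNA motifs through which ATF6 and XBP1 act on chaperone and ERAD genes. They were searched on both strands of the RefSeq promoters of build GRCr8, which run from 250 bases before to 50 bases after each gene start. Of the 10 members, 8 had a promoter in this collection, and Ern1 and Atf6 were not matched. ERSE stood in 3 of those 8 promoters (Hspa5, Hsp90b1 and Xbp1) and in 21 of all 27457 promoters (0.0765%). ERSE-II stood in 1 of the 8, that of Herpud1, and in 15 of all 27457 (0.0546%). The matches with 20 bases on either side are printed because they mark the members that carry such a motif. Beyond the shorter CCACG given below, no other motif of ATF6 or XBP1 was searched. A member without a match, such as Dnajb9 or Sel1l, is not thereby shown to be no direct output of the response. The matches themselves are set out as follows. They are written 5′ to 3′ on the strand of the gene, with the fixed letters of ERSE and the whole of ERSE-II in capitals, and for the second Hsp90b1 match, which lies on the opposite strand, with the reverse complement in capitals.
Hspa5, chr3:38452953-38453011, plus strand: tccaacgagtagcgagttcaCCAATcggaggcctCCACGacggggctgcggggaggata
Xbp1, chr14:84604538-84604596, plus strand: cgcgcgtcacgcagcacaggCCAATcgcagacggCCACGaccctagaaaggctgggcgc
Hsp90b1, chr7:23012431-23012489, minus strand: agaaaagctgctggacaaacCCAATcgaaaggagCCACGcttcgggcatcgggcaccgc
Hsp90b1, second match, chr7:23012327-23012385, minus strand: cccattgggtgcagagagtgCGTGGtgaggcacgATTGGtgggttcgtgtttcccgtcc
Herpud1, chr19:10614801-10614851, minus strand: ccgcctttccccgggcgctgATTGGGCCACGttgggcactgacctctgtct
The matches begin 43 bases before the start of Hspa5, 65 before that of Xbp1, 176 and 72 before that of Hsp90b1 and 124 before that of Herpud1. The motif CCACG alone, which lies within both motifs, was found in all 8 member promoters and in 32.5% of all promoters. The motif TGATGNAA, written here for the sites that bind ATF4 with C/EBP proteins, was found in 1 of the 8, again Herpud1, and in 3.82% of all promoters. There its reverse complement stands in capitals.
Herpud1, chr19:10614864-10614911, minus strand: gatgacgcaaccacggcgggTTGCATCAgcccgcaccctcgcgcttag
A match is a string of letters and not a measured binding site.

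The enterocyte counts held 8782 nuclei, 304 to 1531 per rat, with 319125 to 4123319 unique molecular identifiers (UMIs, each counting 1 captured RNA molecule) per rat and a median of 437 to 2331 UMIs per nucleus. The lowest medians were those of the sham rats GR13 (437) and GR15 (520), then of GR23 (612, placebo) and GR44 (752, PL8177). The highest was that of the sham rat GR12 (2331). Depth is thus uneven between the groups, and fits with nuclei thinned to 300 UMIs are among the alternatives at the end. The T cell counts held 1018 nuclei, 19 to 685 per rat, and 8070 to 779009 UMIs per rat. Enterocyte markers summed to 165 to 422 UMIs per 10000 UMIs in the enterocyte libraries, where T cell markers summed to 0.0280 to 0.376. The T cell nuclei of rat GR23 stood apart: they are 685 of the 1018, and their T cell markers summed to 1.93 UMIs per 10000 against 20.7 to 53.9 in the other 8 rats, with enterocyte markers at 203 per 10000. In the T cell nuclei of the other 8 rats enterocyte markers summed to 25.2 to 98.7 per 10000, above the T cell markers in several of them. The main results that use T cell nuclei are therefore also given without GR23. Among the 9800 nuclei 10 barcodes occurred in more than 1 rat and 0 of these pairs had identical counts. Counts were summed per rat, and levels below are UMIs of the gene per 10000 UMIs of that rat and cell type. Sham values are in the order GR12, GR13 and GR15, placebo values in the order GR22, GR23 and GR24, and PL8177 values in the order GR41, GR43 and GR44.

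In the enterocytes none of the 10 members passed the test in any of the 3 treatment comparisons. The smallest p among members was that of Herpud1, whose level was 2.32 UMIs per 10000 in PL8177 and 1.20 in placebo rats. Hspa5, the chaperone BiP and the usual readout of the response, had overlapping groups in every comparison. A gene was called when edgeR's quasi-likelihood test gave an adjusted p under 0.05 with a log2 fold change beyond 0.5 in either direction. By that rule 0 of 9424 genes were called in each comparison (0%), so no gene outside the 10 was called either. DESeq2 on the same sums called 107 genes (1.14%) for sham against placebo, 63 (0.669%) for PL8177 against placebo and 4 (0.0424%) for PL8177 against sham, and 0 members in each. At an unadjusted p below 0.05, edgeR marked 1 member for sham against placebo, 1 for PL8177 against placebo and 4 for PL8177 against sham, where the shares of all genes were 12.4% (6.54% higher and 5.9% lower), 9.24% (5.5% and 3.75%) and 6.59% (3.09% and 3.5%). The 4 were Herpud1, Hsp90b1 and Sel1l, higher in PL8177 rats, and Atf4, lower. Their count depended on the processing, at 2 with DESeq2, 1 with nuclei of at least 500 genes and 0 to 4 with a rat left out.

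Herpud1 encodes an ER membrane protein that gathers the ERAD machinery. Its level was 1.16, 1.74 and 1.21 UMIs per 10000 for sham, against 1.11, 1.19 and 1.31 for placebo and 1.85, 1.85 and 3.27 for the PL8177 group. Every PL8177 rat lay above every placebo and every sham rat, and the PL8177 rats spread widely, with GR44 highest. The group levels were 1.37 ± 0.319 (SD, n = 3) in sham, 1.20 ± 0.0982 in placebo and 2.32 ± 0.822 in PL8177 enterocytes. The log2 fold change of PL8177 against placebo was 1.12 (SE 0.306, 95% interval 0.46 to 1.78), with an edgeR adjusted p of 0.298 and a DESeq2 adjusted p of 0.0788. Without GR44 the fold change was 0.75, with an edgeR adjusted p of 0.521. Against sham it was 0.78 (SE 0.307, edgeR adjusted p = 0.733), and sham against placebo gave 0.34 (SE 0.311, edgeR adjusted p = 0.671).

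Groups of 3 rats that do not overlap are common in these libraries, and the count of such members has to be read against that. For PL8177 against placebo 1 of the 10 members lay wholly above, Herpud1, and 1 wholly below, Ern1, where 18.6% of the 9989 genes with at least 50 UMIs did not overlap (4.62% above and 14% below). For sham against placebo 1 lay wholly below, Hsp90b1, with 19.6% of genes not overlapping (14.4% below), and for PL8177 against sham 2 lay wholly above (Herpud1 and Ddit3) and 1 wholly below (Atf4), with 11.8% (6.12% above and 5.69% below).

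**Figure D1:**
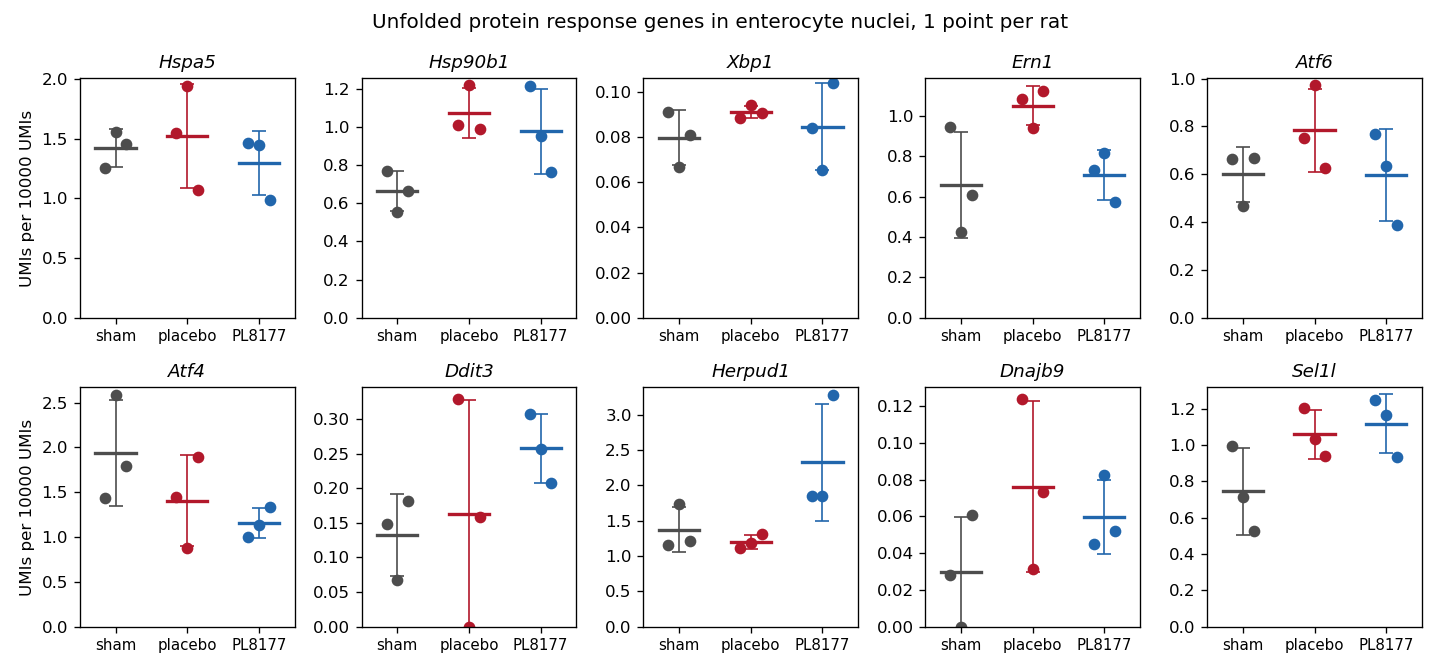
Level of each of the 10 genes in enterocyte nuclei, in UMIs per 10000 UMIs (vertical axes, each starting at 0), for sham, placebo and PL8177 rats. Points are rats, horizontal bars are means and error bars are SD (n = 3). The PL8177 points of Herpud1 (1.85, 1.85 and 3.27) lie above all sham and placebo points, while the 3 groups of Hspa5 overlap.

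Sel1l, the other ERAD member, encodes the adaptor of the ubiquitin ligase HRD1. It was measured at 0.996, 0.713 and 0.525 UMIs per 10000 for sham, against 1.20, 1.03 and 0.938 for placebo and 1.25, 1.17 and 0.935 for the PL8177 group. The sham rats GR13 and GR15, with the lowest median UMIs per nucleus, were on the low side. Placebo and PL8177 rats covered nearly the same range, and the sham rat GR12 lay within it. The log2 fold changes were -0.33 (SE 0.260) for sham against placebo, 0.23 (SE 0.252) for PL8177 against placebo and 0.56 (SE 0.258) for PL8177 against sham, with edgeR adjusted p-values of 0.618, 0.828 and 0.747.

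Among the chaperones, Hspa5 was measured at 1.25, 1.56 and 1.45 UMIs per 10000 for sham, against 1.55, 1.94 and 1.07 for placebo and 1.46, 1.44 and 0.987 for the PL8177 group. The 3 groups overlapped, and placebo rats held both the highest and nearly the lowest value. The log2 fold change was 0.08 (SE 0.259, 95% interval -0.48 to 0.65) for sham against placebo and -0.03 (SE 0.255, 95% interval -0.59 to 0.52) for PL8177 against placebo, with edgeR adjusted p-values of 0.930 and 0.985. These intervals leave room for a change of Hspa5 of about the size of the fold threshold in either direction.

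Hsp90b1 encodes GRP94, the ER member of the HSP90 family. Its level was 0.770, 0.557 and 0.666 UMIs per 10000 for sham, against 1.01, 1.22 and 0.989 for placebo and 1.21, 0.951 and 0.766 for the PL8177 group. All sham rats lay below all placebo rats, and PL8177 rats ran from just below the highest sham value to nearly the highest placebo value. Sham against placebo gave a log2 fold change of -0.51 (SE 0.235, 95% interval -1.02 to -0.00, edgeR adjusted p = 0.401), PL8177 against placebo 0.05 (SE 0.226, edgeR adjusted p = 0.973) and PL8177 against sham 0.56 (SE 0.232, edgeR adjusted p = 0.747). Dnajb9, which encodes ERdj4, a cochaperone of BiP, was sparse, with 9, 0 and 3 UMIs for sham, against 49, 1 and 13 for placebo and 8, 34 and 4 for the PL8177 group. Its fold change for sham against placebo was -1.47 on the log2 scale (SE 0.701, edgeR adjusted p = 0.408), with groups that overlapped.

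Of the sensors, Ern1 was measured at 0.943, 0.423 and 0.606 UMIs per 10000 for sham, against 1.09, 0.940 and 1.12 for placebo and 0.733, 0.817 and 0.572 for the PL8177 group. PL8177 rats all lay below placebo rats, and sham rats did so except for GR12, which lay just above the lowest placebo value. The log2 fold change was -0.50 (SE 0.272, edgeR adjusted p = 0.456) for sham and -0.42 (SE 0.265, edgeR adjusted p = 0.673) for PL8177 against placebo. Atf6 was measured at 0.663, 0.468 and 0.666 UMIs per 10000 for sham, against 0.751, 0.971 and 0.627 for placebo and 0.766, 0.633 and 0.390 for the PL8177 group, and these groups overlapped. Its log2 fold changes were -0.19 (SE 0.275) for sham and -0.18 (SE 0.266) for PL8177 against placebo and 0.01 (SE 0.271) for PL8177 against sham.

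Of the transcription factors, Atf4, the effector of the PERK branch, was measured at 1.43, 2.58 and 1.80 UMIs per 10000 for sham, against 1.45, 0.877 and 1.89 for placebo and 1.00, 1.13 and 1.34 for the PL8177 group. PL8177 rats all lay below sham rats, and placebo rats spanned both groups. The log2 fold change was -0.74 (SE 0.333, edgeR adjusted p = 0.747) for PL8177 against sham, 0.58 (SE 0.332, edgeR adjusted p = 0.482) for sham against placebo and -0.16 (SE 0.329, edgeR adjusted p = 0.919) for PL8177 against placebo. Ddit3, which encodes the stress factor CHOP, gave 47, 3 and 9 UMIs for sham, against 130, 0 and 28 for placebo and 55, 106 and 16 for the PL8177 group. In GR23 0 of 319125 UMIs allow a level of up to 0.0940 UMIs per 10000, counting error alone, and the fold changes of Ddit3 had SEs of 0.532 to 0.591. Xbp1 was the scarcest of the transcription factors, with 36 UMIs over the sham rats, 54 over the placebo rats and 50 over the PL8177 rats. Its log2 fold change was -0.00 (SE 0.430, 95% interval -0.93 to 0.93) for sham against placebo, -0.01 (SE 0.405) for PL8177 against placebo and -0.01 (SE 0.426) for PL8177 against sham.

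**Figure D2:**
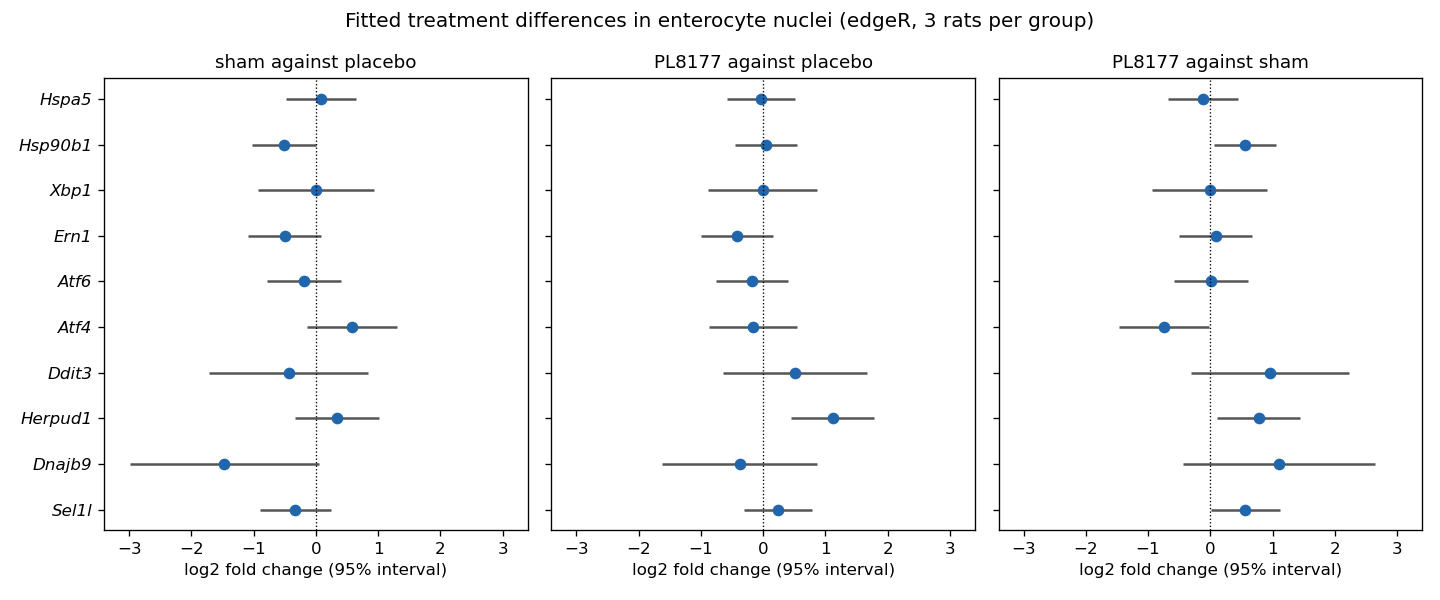
Log2 fold change of each of the 10 genes in enterocyte nuclei (horizontal axes, edgeR, 3 rats per group) for the 3 comparisons; points are estimates and lines 95% intervals. The interval of Herpud1 for PL8177 against placebo (0.46 to 1.78) lies clear of 0 before adjustment, and those of Dnajb9 and Ddit3 are the widest.

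The wider pathway was followed through 60 further genes, of which 51 were tested in enterocytes. None was called by edgeR, and at an unadjusted p below 0.05 3 were higher and 5 lower in sham than in placebo rats, 3 higher and 1 lower in PL8177 than in placebo rats, and 3 higher and 1 lower in PL8177 than in sham rats. In the same order, the shares of all genes at that p were 12.4%, 9.24% and 6.59%. The median log2 fold change of the 10 members was -0.26 for sham against placebo, -0.02 for PL8177 against placebo and 0.32 for PL8177 against sham, beside -0.02, -0.01 and 0.03 for all 9424 genes. Scaling by library totals in place of TMM factors moved the median of all genes to -0.16 in the sham and to -0.17 in the PL8177 comparison with placebo. It turned the sign of Hspa5 in the former (-0.09) and of Hsp90b1 in the latter (-0.12).

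In the grouping used here Atf4 and Ddit3 are counted with the transcription factors. That group had a median of 0.03 for PL8177 against placebo (-0.12 under library totals). Atf4 had a negative and Ddit3 a positive fitted value there. The genes listed as acting after PERK had the highest group median in PL8177 against placebo, at 0.47 over the 6 tested of 11 listed (0.31 under library totals). Of these 6 genes 2 had an unadjusted p below 0.05, as did 9.24% of all genes. The 2 were Ppp1r15a, which encodes GADD34, the factor that restarts translation, and Sesn2, which encodes sestrin 2. Ppp1r15a was measured at 0.474, 1.07 and 0.262 UMIs per 10000 for sham, against 0.240, 0.282 and 0.170 for placebo and 0.749, 0.492 and 1.04 for the PL8177 group. PL8177 rats all lay above placebo rats, and sham rats reached into both groups. Its log2 fold change for PL8177 against placebo was 1.92 (SE 0.486), with an edgeR adjusted p of 0.270 and a DESeq2 adjusted p of 0.0243, so DESeq2 called it and edgeR did not. Sesn2 gave 0.69 (SE 0.223, edgeR adjusted p = 0.390).

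Creb3l1, which encodes a membrane-bound relative of ATF6, was measured at 1.29, 0.713 and 0.565 UMIs per 10000 for sham, against 0.397, 0.470 and 0.362 for placebo and 1.20, 0.633 and 0.494 for the PL8177 group. All placebo rats lay below the other 6. Its log2 fold change was 1.29 (SE 0.368, edgeR adjusted p = 0.218) for sham and 1.11 (SE 0.362, edgeR adjusted p = 0.390) for PL8177 against placebo. Dnajc3, which encodes the cochaperone P58IPK, was at -0.96 (SE 0.278, edgeR adjusted p = 0.219) and Erlec1, an ERAD lectin gene, at -1.27 (SE 0.389, edgeR adjusted p = 0.235) for sham against placebo. For PL8177 against sham the lowest p-values were those of Manf at -1.14, an ER-resident factor, of Ddit4 at 0.81 and of the ERAD gene Selenos at 0.77, each with an edgeR adjusted p of 0.733. The 15 ERAD genes tested, Herpud1 and Sel1l included, had a median of 0.23 for PL8177 against placebo (0.07 under library totals) and 0.39 for PL8177 against sham, the chaperone and folding genes -0.12 and 0.08, and the translocon genes -0.03 in both.

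Markers of maturity and of other cells were summed beside these genes. Surface markers of the epithelium summed to 195 to 365 UMIs per 10000 in sham, 120 to 167 in placebo and 163 to 229 in PL8177 enterocytes, and placebo rats lay below all sham rats but overlapped with PL8177 rats. Goblet cell markers, whose cells carry a large ER, summed to 1.71 to 4.21, 1.51 to 4.16 and 1.67 to 3.44, and plasma and B cell markers to at most 0.101 UMIs per 10000 in any rat, with 1 to 6 of the 6 markers found at 0. Leaving out nuclei with a UMI of either list kept 6545 of 8782 nuclei and gave the same sign for Herpud1 in all 3 comparisons. That kept 557 of 929 nuclei in GR12, the rat with the highest median UMIs, and 686 of 827 in GR13, the lowest. The kept share thus differed between rats, and the part of goblet and B cells in the treatment differences was not tested. The part of the surface markers in the treatment differences was not tested.

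The position of the members along the surface range was measured within each rat. Nuclei with at least 500 UMIs were ranked by the share of their UMIs from 12 surface genes, and the highest and the lowest tertile, 63 to 434 nuclei each, were summed and compared with the rat as a block. The tertiles are ranges on a score and not cell types: nuclei at the cut of the highest tertile of GR12, for example, had 2.27% of their UMIs from these genes. Cycling and crypt markers were lower in the highest tertile in 9 of 9 rats. Of 7 members tested, Herpud1 and Atf4 rose and Atf6 fell toward the surface, and Hsp90b1, at -0.50, was just short of the fold threshold. The shift is shared by much of the transcriptome, since 2875 of 5060 genes (56.8%) were called, 26.9% higher and 30% lower, and 3 called members of 7 do not exceed that share.

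Herpud1 moved most among the 7 members tested. In the lowest tertile it was measured at 0.708, 1.95 and 0.646 UMIs per 10000 for sham, against 0.548, 0.580 and 0.868 for placebo and 1.27, 0.981 and 2.45 for the PL8177 group. In the highest it was 1.62, 1.55 and 1.57 for sham, against 1.47, 1.60 and 1.55 for placebo and 2.03, 2.37 and 3.98 for the PL8177 group. It was higher in the highest tertile in 8 of 9 rats, the exception being GR13, and PL8177 rats lay above placebo rats within both tertiles. Of genes with at least 50 UMIs, 18.1% in the lowest (6.22% with PL8177 above) and 13.9% in the highest tertile (5.55% above) had PL8177 and placebo rats that did not overlap. The log2 fold change of highest over lowest was 1.31 (SE 0.164, edgeR adjusted p = 2.56e-06).

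Atf4 rose by 0.67 on the log2 scale (SE 0.146, edgeR adjusted p = 0.000615) and was higher in the highest tertile in 8 of 9 rats, from a median of 1.22 (0.580 to 2.25) to one of 1.60 (0.842 to 2.85) UMIs per 10000. Atf6 fell by 0.52 (SE 0.163, edgeR adjusted p = 0.00926) and was lower in 9 of 9 rats, from a median of 0.896 (0.575 to 1.45) to one of 0.492 (0.129 to 0.785). Hsp90b1 was lower in 7 of 9 rats, from a median of 1.10 (0.287 to 2.0) to one of 0.726 (0.259 to 1.18), with a fold change of -0.50 (SE 0.213, edgeR adjusted p = 0.0471, DESeq2 adjusted p = 0.137). The call of Atf6 was lost, through the fold threshold, without GR13 (-0.42), GR23 (-0.43) or GR44 (-0.45), and without a filter on low counts (-0.32, edgeR adjusted p = 0.221). The 3 tested members with an ERSE or ERSE-II, printed above, had fitted values of 0.20 for Hspa5, -0.50 for Hsp90b1 and 1.31 for Herpud1.

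Sel1l had a fold change of 0.42 (SE 0.151, edgeR adjusted p = 0.0216), short of the fold threshold, and was called without GR13 (0.52), without GR15 (0.52) and with no filter on low counts (0.60, in a fit that called 33.6% of 16042 genes). Hsp90b1 was called without GR12 (-0.60), GR15 (-0.57) or GR24 (-0.56) and with nuclei of at least 1000 UMIs (-0.59). Ern1 had a fold change of -0.31 (SE 0.235, edgeR adjusted p = 0.249) and Hspa5 of 0.20 (SE 0.196, edgeR adjusted p = 0.385). The level of Hspa5 was nevertheless lower in the highest tertile in 6 of 9 rats. Xbp1, Ddit3 and Dnajb9 were too sparse to be tested. Their summed UMIs in the highest and the lowest tertile were 39 and 50 for Xbp1, 202 and 65 for Ddit3, and 78 and 11 for Dnajb9, and the levels of Dnajb9 were higher in the highest tertile in 7 of 9 rats.

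Scaling and depth bear on these values. Under library totals the median of all genes moved from -0.06 to -0.44 and 63.4% were called. Herpud1 stayed at 0.95 (edgeR adjusted p = 2.57e-05) and Atf6 at -0.92 (edgeR adjusted p = 8.26e-05), Atf4 came to 0.31 and was no longer called (edgeR adjusted p = 0.0696), Sel1l came to 0.03, Hspa5 turned to -0.19, and Hsp90b1 (-0.89, edgeR adjusted p = 0.00113) and Ern1 (-0.70, edgeR adjusted p = 0.00947) were called as lower. Nuclei of the highest tertile were deeper in 7 of 9 rats, in GR22 with a median of 3962 against 1287 UMIs, and shallower in GR13 and GR15. With all nuclei thinned to 500 UMIs, where 55.9% of 2760 genes were called, Herpud1 stayed at 1.14 (edgeR adjusted p = 8.08e-05) and Atf4 at 0.52 (edgeR adjusted p = 0.0200), Hsp90b1 came to -0.63 (edgeR adjusted p = 0.0497), and Sel1l and Hspa5 turned to -0.04 and -0.26. Atf6 was too sparse to be tested after thinning. Macrophage and dendritic cell markers were higher in the highest tertile in 8 of 9 rats, at 0.409 to 2.79 against 0 to 1.47 UMIs per 10000, and their part was not tested. Ranked instead by the share of crypt and cycling marker UMIs, which only 14.6% of the 6781 nuclei held, so that most places in the ranking were ties broken at random, the tertiles gave no called member, with Herpud1 at 0.11 and Atf4 at 0.03.

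**Figure D3:**
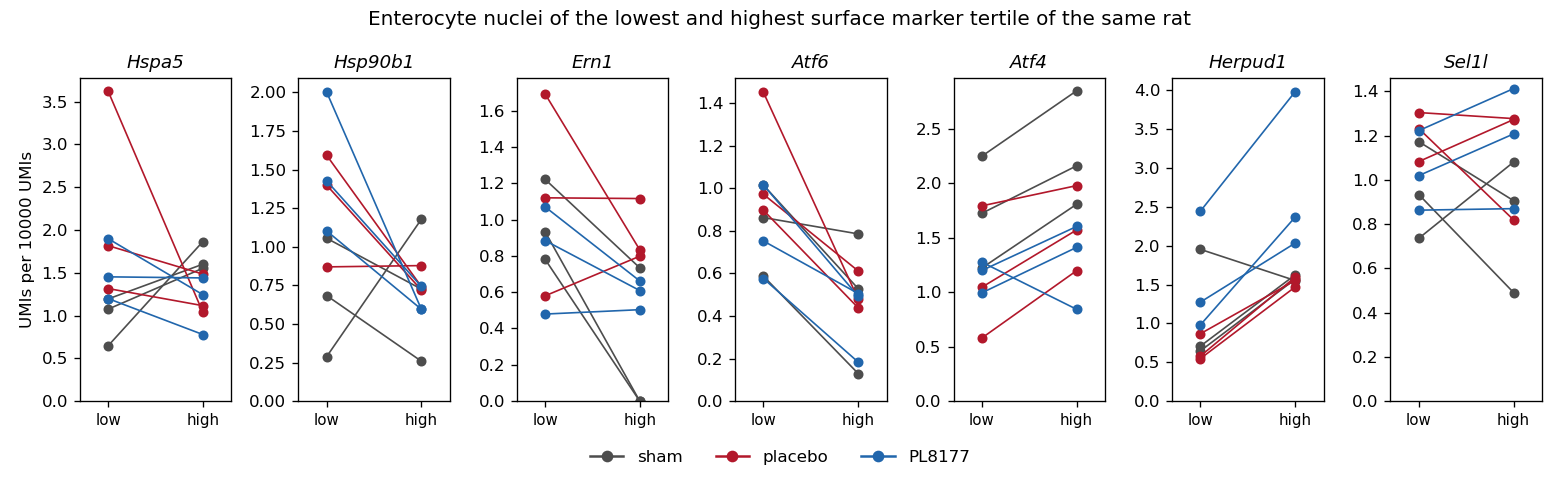
Level of the 7 members tested, in UMIs per 10000 UMIs (vertical axes, each starting at 0), in enterocyte nuclei of the lowest and the highest surface marker tertile. Each line joins the pair of values of 1 rat, coloured by treatment (9 rats). Herpud1 climbs in 8 of 9 rats and Atf6 declines in 9 of 9, while Hspa5 and Sel1l move both ways.

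Along the same range 31 of the 60 further genes were tested, and 11 were called higher and 7 lower at the surface, a share close to the 56.8% of all genes, so neither this count nor the small groups below stand apart from it. Of the 5 tested genes listed as acting after PERK, with Atf4 and Ddit3 again counted apart, 4 rose and 1 fell, with a median of 0.89. They include Ppp1r15a at 1.84 (SE 0.213, edgeR adjusted p = 1.17e-06), and, picked after the values were seen, Ddit4 at 2.25 (SE 0.321) and the translation factor gene Eif2s1 at -1.26 (SE 0.235). The transcription factor Atf3, which ATF4 induces, rose most of the list, by 3.75 (SE 0.271, edgeR adjusted p = 1.38e-08). Of the 11 ERAD genes tested, members included, 4 rose and 1 fell (median 0.32), against 3 and 3 under library totals (median -0.07). Edem1, the lectin that hands glycoproteins to ERAD, rose by 1.32 (SE 0.172, edgeR adjusted p = 3.90e-06). Atf3, Ppp1r15a, Ddit4, Eif2s1 and Edem1 were not tested after thinning, so their values have no counterpart at equal depth.

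Sensors and folding genes are counted here beside the 26.9% higher and 30% lower of all genes. Of 4 tested genes in the sensor group of the list 0 rose and 2 fell, Atf6 and Mbtps1. Mbtps1 encodes a protease that cuts ATF6 and is not itself a sensor, and was at -1.18 (SE 0.165). The sensor genes Ern1 and Eif2ak3 were not called. Of 10 chaperone and folding genes, members included, 2 rose, the calcium-binding chaperone gene Calr and the disulfide isomerase gene P4hb, and 4 fell (Pdia3, Canx, Dnajc3 and Sil1), with a median of -0.17. Of 4 translocon genes 1 rose, Ssr3, and under library totals 0 rose and 1 fell. These names beyond Atf3, Ppp1r15a and Edem1 were picked after the values were seen. Under library totals the wider list gave 7 higher and 11 lower in place of 11 and 7.

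**Figure D4:**
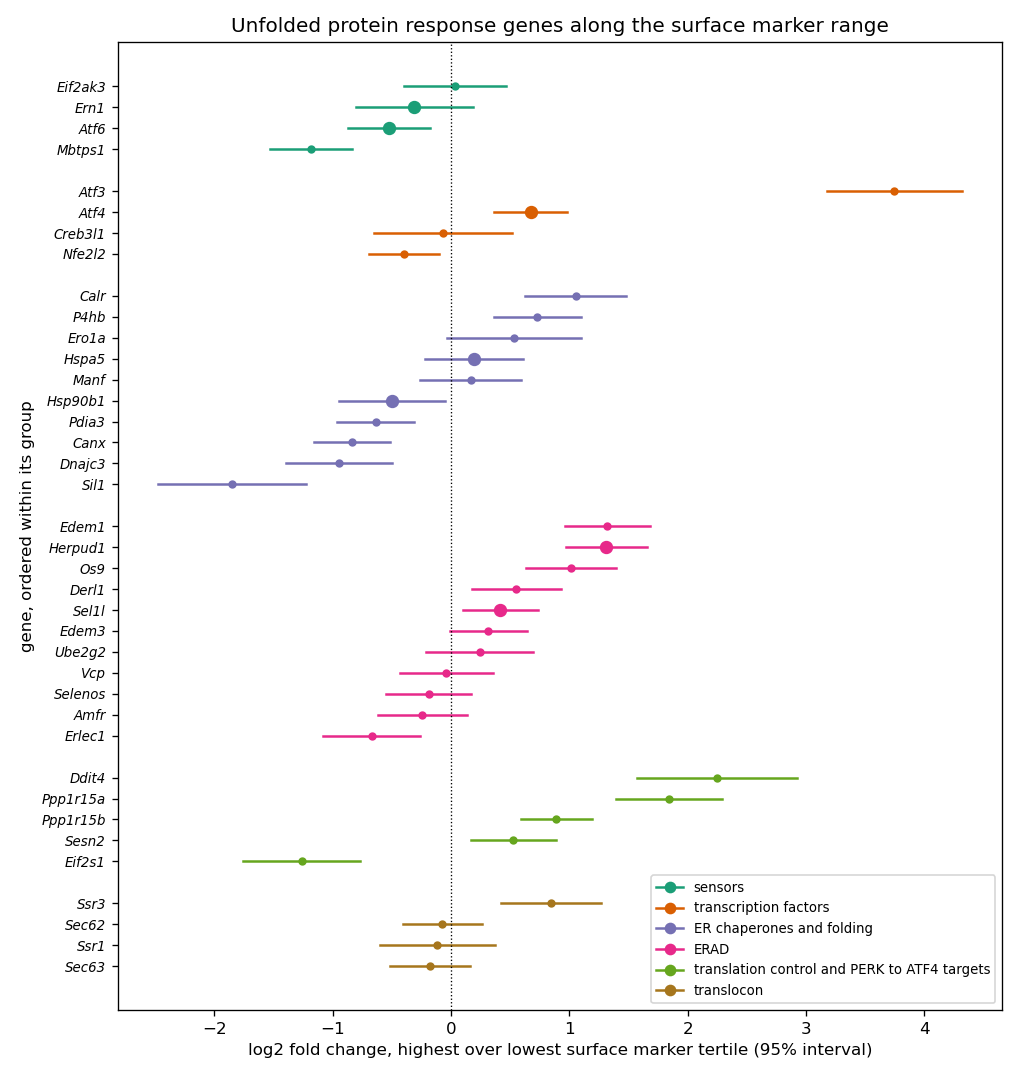
Log2 fold change of the highest over the lowest surface marker tertile (horizontal axis, edgeR with the rat as a block, 9 rats) for the tested genes of the pathway, grouped and coloured by role. Points are estimates, larger for the 7 members tested, and lines 95% intervals. Atf3 stands at 3.75, the genes after PERK lie mostly above 0, and Mbtps1, Sil1 and Canx lie below 0.

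Set against T cell nuclei of the same rats, 2 of 7 tested members were lower in enterocytes, Atf6 and Hsp90b1, and none was higher. In the same fit 1769 of 5194 genes (34.1%) were called, 20.7% higher and 13.3% lower in enterocytes. Over the 15108 genes that all tables share, Atf6 was measured in T cell nuclei at 2.77, 1.24 and 6.86 UMIs per 10000 for sham, against 3.17, 0.873 and 3.03 for placebo and 3.74, 2.15 and 2.44 for the PL8177 group, and in enterocytes at 0.403 to 0.997. It was higher in T cell nuclei in 8 of 9 rats, GR23 being the exception, and the log2 fold change of enterocytes over T cells was -1.73 (SE 0.288, edgeR adjusted p = 7.41e-05), or -1.92 without GR23. The T cell level of Atf6 rests on 1 UMI in GR13 and on 5 in GR44.

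Hsp90b1 was measured in T cell nuclei at 2.26, 2.48 and 1.53 UMIs per 10000 for sham, against 2.61, 0.539 and 2.77 for placebo and 4.57, 3.31 and 4.89 for the PL8177 group, and in enterocytes at 0.571 to 1.25. Again 8 of 9 rats had the higher level in T cell nuclei, and GR23 did not. The T cell level of GR13 rests on 2 UMIs and that of GR15 on 4. The log2 fold change was -1.13 (SE 0.291, edgeR adjusted p = 0.00416), or -1.35 without GR23. With no filter on low counts it was -0.59 and no longer called (edgeR adjusted p = 0.187). Herpud1 lay higher in enterocytes in 8 of 9 rats, at 1.15 to 3.39 against 0.381 to 1.95. Its T cell UMIs numbered 17, 1 and 1 for sham, 3, 138 and 8 for placebo and 3, 7 and 4 for the PL8177 group, so most of these levels are imprecise. The fold change of Herpud1 was 0.70 (SE 0.284, edgeR adjusted p = 0.116). Without GR23 it was 1.04 (edgeR adjusted p = 0.000353) and called, as was Ern1 at -0.57 (edgeR adjusted p = 0.0463), which gave -0.45 (edgeR adjusted p = 0.257) with all rats. That fit called 54.2% of 5129 genes (31% higher and 23.2% lower), so 4 called members of 7 are near the share of all genes.

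Hspa5 (0.15, SE 0.252), Atf4 (0.39, SE 0.261) and Sel1l (0.32, SE 0.304) did not pass, nor without GR23 (0.06, 0.44 and 0.30). With no filter on low counts, where 25.9% of 14987 genes were called, Atf4 (0.92, edgeR adjusted p = 0.0327) and Herpud1 (1.27, edgeR adjusted p = 0.00304) were called. Xbp1, Ddit3 and Dnajb9 had 20, 18 and 6 UMIs in T cell nuclei and were not tested. In a fit that called 50.9% of 4064 genes, with only the 212 T cell nuclei whose T cell marker UMIs were present and not outnumbered by enterocyte marker UMIs, Atf6 was at -2.17 (edgeR adjusted p = 7.10e-13) and Hsp90b1 at -1.16 (edgeR adjusted p = 0.000569), and Ern1 (-0.89, edgeR adjusted p = 0.0157) and Atf4 (0.91, edgeR adjusted p = 0.0281) were called too. Herpud1 came to 0.64 with those 212 nuclei and was not called (edgeR adjusted p = 0.113). Library totals moved the median of all genes from 0.08 to -0.22 and turned Hspa5 to -0.19. They put Herpud1 at 0.37, not called (edgeR adjusted p = 0.599). Apart from GR23, goblet cell markers summed to 5.30 to 12.9 UMIs per 10000 in T cell nuclei against 1.51 to 4.21 in enterocytes, and crypt and cycling markers to 4.96 to 8.04 against 0.545 to 1.44, and their part in these differences was not tested. Of the wider list the lowest p-values were those of Atf3, at 2.10 (SE 0.523, edgeR adjusted p = 0.00314, and 3.34 without GR23), of Sil1, the exchange factor of BiP, at -1.50 (edgeR adjusted p = 0.00324, and -1.79 without GR23) and of Creb3l1 at -1.12 (edgeR adjusted p = 0.00625, and -1.18 without GR23), which with the 212 nuclei came to -0.33 and was no longer called (edgeR adjusted p = 0.517). Creb3l1 also lost its call with no filter on low counts (-0.58, edgeR adjusted p = 0.212).

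**Figure D5:**
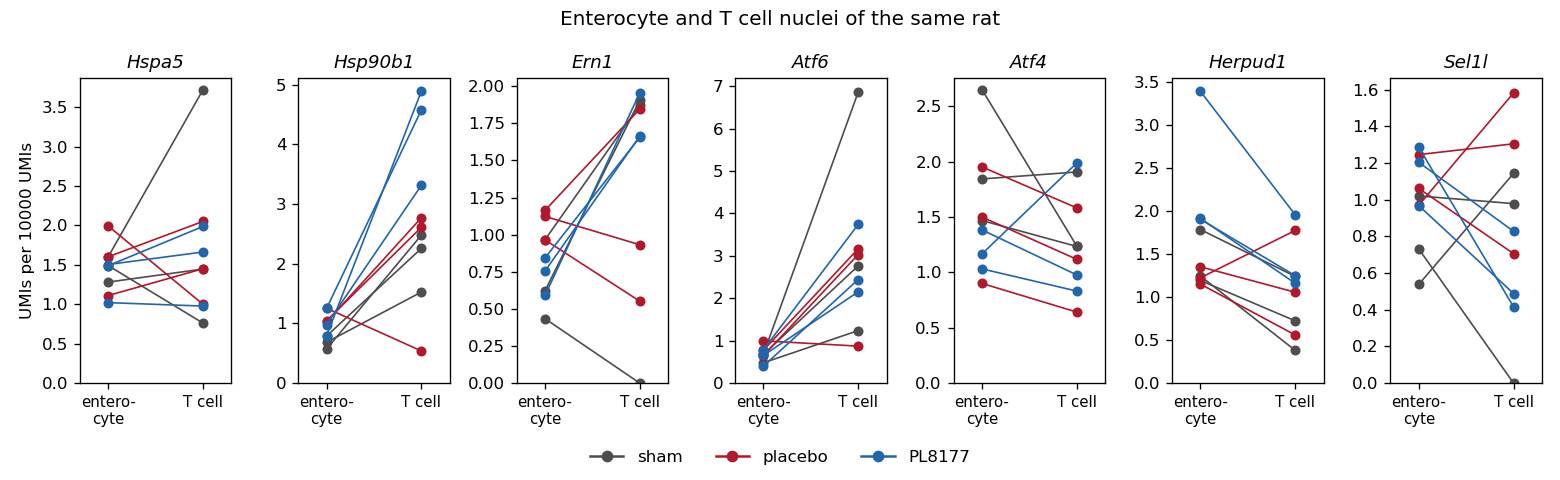
Level of the 7 members tested, in UMIs per 10000 UMIs (vertical axes, each starting at 0), in enterocyte and T cell nuclei. Each line joins the pair of values of 1 rat, coloured by treatment (9 rats). Atf6 and Hsp90b1 are higher in T cell nuclei in 8 of 9 rats, and the placebo line that goes the other way is GR23. The T cell points of GR13 rest on 1 UMI for Atf6 and 2 for Hsp90b1.

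Within T cell nuclei 4 members were deep enough to be tested against placebo, and none was called, nor was any of 1828 genes (0%) with edgeR at a log2 fold change beyond 1.5. Unadjusted p-values under 0.05 were found for 90 genes (4.92%) in the sham comparison and 18 (0.985%) in the PL8177 comparison with placebo, and DESeq2 called 0 in both. Hsp90b1 was 1.10 higher on the log2 scale in PL8177 than in placebo T cell nuclei (SE 0.588, edgeR adjusted p = 0.999). It was the 1 member of 10 whose PL8177 rats all lay above the placebo rats. Of 4818 genes with at least 50 UMIs, which leave out Xbp1, Ddit3 and Dnajb9, 6.21% did not overlap (3.51% above). Hsp90b1 also lay wholly above sham (9.44%, 5.48% above), and no member was free of overlap for sham against placebo (8.8%). Without GR23, with 2 placebo rats left, Hsp90b1 and Herpud1 lay wholly above and Sel1l wholly below placebo. There 21.5% of 2810 genes with at least 50 UMIs did not overlap (9.54% above). Herpud1 had too few UMIs to be among these genes, with 3, 7 and 4 in PL8177 against 3 and 8 in placebo rats. With GR23 kept, Atf6, Ern1 and Hspa5 gave log2 fold changes of 0.18, 0.60 and 0.01 for PL8177 against placebo. Without GR23 only Hsp90b1 and Atf6 could be tested, at 0.57 (SE 0.463, edgeR adjusted p = 0.974) and -0.25 (SE 0.535, edgeR adjusted p = 0.981). The difference of the treatment effect between the cell types was called by edgeR for 0 of 5194 genes, while 339 genes (6.53%) had an unadjusted p under 0.05 in the sham and 181 (3.48%) in the PL8177 contrast. The 7 members tested had edgeR adjusted p-values of at least 0.879, with intervals more than 2 log2 units wide, as for Hsp90b1 at -1.30 (95% interval -2.65 to 0.04). Without GR23 that of Hsp90b1 came to -0.46 (SE 0.542, edgeR adjusted p = 0.997), and the genes called, named after their values were seen, were Slfn4, Fth1, Tspan5 and AABR07051515.1 in the sham and Slc26a3, RT1-A2 and AABR07051515.1 in the PL8177 contrast, with no member among them.

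How the members varied together between rats was described by correlation. Over the 9 enterocyte libraries 45 pairs of members were correlated on log2 UMIs per 10000 UMIs, with 0.5 UMIs added, and 0 pairs had an adjusted permutation p below 0.05. The smallest exact permutation p-values were those of Hsp90b1 with Atf4 (Pearson's r = -0.81, p = 0.00797, adjusted p = 0.296, Spearman's rho = -0.68, p = 0.0503, n = 9) and of Hsp90b1 with Sel1l (r = 0.76, p = 0.0138, adjusted p = 0.296, rho = 0.75, p = 0.0255, n = 9). Without the 2 rats farthest from the median of Hsp90b1 these r were -0.56 and 0.56. Of the 45 pairs 25 had a positive r, and the median r was 0.02. With the levels centred by treatment, r was -0.81 for Hsp90b1 with Atf4 (exact permutation within treatments, p = 0.00463, the smallest it can give, adjusted p = 0.139) and 0.48 for Hsp90b1 with Sel1l (p = 0.269, adjusted p = 0.675, exact permutation), and again 0 pairs passed. The libraries also differ in depth.

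The 2 chaperones with an ERSE were also followed within single nuclei, to see whether one was found more often where the other was. Nuclei with at least 500 UMIs were thinned to 500, which left 6781 nuclei, of which 438 held an Hspa5 UMI and 28 of these also an Hsp90b1 UMI. The share of nuclei with Hsp90b1 was 0% to 13% among nuclei with Hspa5 and 2.28% to 6.55% among nuclei without, over the 9 rats. The mean difference was 0.285 percentage points ± 4.60 (SD, n = 9), above 0 in 4 of 9 rats, with a two-sided exact sign-flip permutation p of 0.8711. Each rat's share rests on 18 to 97 nuclei with Hspa5, so the shares of single rats are imprecise.

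The pattern of Hspa5 over the 9 enterocyte libraries was closest, by Pearson's r of edgeR's log2 CPM, which carry the TMM factors, among 9423 genes, to LOC100911248 (r = 0.96), Coq4 (0.92), Fstl4 (0.92), Thap1 (0.91) and Camta2 (0.90). The member nearest to it was Atf6 at 0.50, rank 762, Hsp90b1 was at -0.02, and Xbp1 at -0.59 was the farthest on this scale, while the median over all genes was -0.02. On the log2 levels used for the 45 pairs, r with Hspa5 was 0.69 for Atf6, 0.26 for Hsp90b1 and -0.17 for Xbp1. There Ddit3 was the farthest at -0.54, so the place of the sparse members depends on the scale. The 5 genes named first are the highest of many values, and all of these r describe 9 libraries.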

How the data were processed

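The authors isolated nuclei from flash-frozen colon, made 10x 3′ libraries, ran Cell Ranger 6.0.1 to count UMIs (introns included, rat genome build Rnor 6.0), removed empty droplets and artifacts with CellBender, filtered nuclei on genes and mitochondrial reads, and assigned cell types from clusters made with Seurat 4.0.3. The authors deposited whole UMI counts of the enterocyte and of the T cell nuclei of each treatment, in 6 tables, with no normalization for depth. No nuclei were removed here and no doublet caller was run. The rat of a nucleus is the tag that starts its name, giving 3 tags per treatment, which no label spells out, so n rests on this reading. The placebo T cell table breaks off after 15108 of 17388 genes, and comparisons with T cells use those 15108.

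Counts were summed per rat and tested with edgeR 4.0.16 (TMM, filterByExpr, quasi-likelihood test, Benjamini-Hochberg adjustment over all genes tested) in R 4.3.3, with all 3 treatments in 1 fit or, within rats, with the rat as a block since both samples come from 1 animal. DESeq2 1.42.0 was the alternative test, and the fits were tested on simulated counts. SEs are the fitted coefficient over the root of its F statistic. Levels, permutation tests and motifs used pandas 2.3.3, scipy 1.17.1, numpy 2.4.6 and matplotlib 3.10.9 under Python 3.11.15. The members, the pathway and marker lists and the tests were chosen with earlier results of these data known. Named genes are the 10 members, and per comparison the 3 further pathway genes with the lowest p; others are said to be picked later. Derl3 and Nupr1 of the pathway list, and Muc2, Cd79a, Tnfrsf17 and Cd8a of the marker lists, were not among the genes used here. Enteroendocrine, tuft, fibroblast and smooth muscle markers summed to at most 0.141, 0.282, 0.505 and 2.10 UMIs per 10000 in any enterocyte library. The alternatives were DESeq2, DESeq2 size factors, library totals, no filter on low counts, nuclei with at least 500 genes, nuclei thinned to 300 UMIs, nuclei without goblet or B cell marker UMIs, and each rat left out. For tertiles and cell types they were another depth, ranking, T cell selection or no block. Levels of different genes were not compared, as gene lengths of this build were not used here. Counting intervals cover counting error only. Promoter sequences are from RefSeq, build GRCr8, a later build than that of the counts, and were matched by symbol.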

Additional observations from a re-analysis of the deposited data

Results flagged for a closer look

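Ratios of the 7 members tested were screened for a rat far from the other 8, by Dixon's criterion, together with the co-detection differences. Of 15 groups of 9 rats 5 had such a rat, where chance gives about 1 in 20. The enterocyte over T cell log2 ratio of Hsp90b1 was 1.20 in GR23 and below 0 in the other 8 rats. GR23 is the rat whose T cell nuclei carried few T cell markers, and the part of this in the ratio was not tested. The same ratio was 4.35 for Ern1 and 5.07 for Sel1l in GR13, both resting on 0 UMIs in a T cell library of 8070 UMIs, so they are set by the count added before taking logs. Along the surface range the log2 ratio of the highest over the lowest tertile was 1.89 for Hsp90b1 in GR15, where 7 of 9 rats had the lower level in the highest tertile, and -0.32 for Herpud1 in GR13, where the other 8 rats were above 0. GR13 and GR15 are also the rats whose highest tertile was shallower than the lowest, and the part of this was not tested.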

How the results depend on the processing

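Gene counts, and the fitted values of members and named pathway genes in enterocytes between treatments, between cell types and along the surface range, were recomputed under alternatives. Library totals and thinning for the tertiles, library totals for the cell types and centring by treatment for the correlations were chosen after seeing the data. The difference between cell types was recomputed with each rat left out alone, and group overlaps and likeness to Hspa5 were not recomputed for enterocytes. Of 1088 recomputed values 956 kept their direction and side of the threshold, or stayed within 1.5 times for counts. Enterocyte genes called, 0 in each comparison, came to 107, 63 and 4 with DESeq2 and 51, 8 and 10 without a filter for sham against placebo, PL8177 against placebo and PL8177 against sham, and for sham against placebo also to 5 with library totals and 2 without nuclei holding goblet or B cell marker UMIs. Leaving out a rat gave 0 to 8, 0 to 0 and 0 to 2. Members with unadjusted p-values under 0.05 numbered, for sham against placebo (1), 0 with DESeq2, DESeq2 size factors or thinning and 2 with library totals, and for PL8177 against sham (4) were 2 with DESeq2, library totals or no goblet or B cell marker UMIs and 1 with at least 500 genes or thinning. Without a rat they were 0 to 3, 1 to 2 for PL8177 against placebo, and 0 to 4. T cell genes called were 33 and 4 without a filter, and 0 with any 1 rat left out. Enterocyte against T cell nuclei gave 3881 genes without a filter and 1160 (GR12) to 2780 (GR23) without a rat. The tertiles gave 5397 without a filter, 11 ranked by crypt markers, 1542 thinned, and 2348 to 3482 without a rat. The difference between cell types gave 0 to 4 and 0 to 3 without a rat (most without GR23), and co-detection -0.481 to 0.986 without a rat, 1.07 at 1000 UMIs and 1.25 without goblet or B cell marker UMIs. Signs turned as follows. For sham against placebo Xbp1 was 0.011 with DESeq2, 0.013 with size factors and 0.23 with at least 500 genes, and Hspa5 -0.085 with library totals and -0.19 thinned. For PL8177 against placebo Hsp90b1 was -0.12 with library totals and -0.021 without goblet or B cell marker UMIs, Hspa5 0.0027 without a filter, 0.012 with at least 500 genes and 0.0067 without those UMIs, Xbp1 0.0060 with at least 500 genes and Atf6 0.15 thinned. For PL8177 against sham Atf6 was -0.017 with DESeq2, -0.019 with size factors, -0.0067 with library totals and -0.17 without those UMIs, Xbp1 0.028 without a filter and 0.097 without those UMIs, and Ern1 -0.0074 with at least 500 genes and -0.23 thinned. Between cell types Ern1 was 0.055 without a filter and Hspa5 -0.19 with library totals. Along the surface range Hspa5 was -0.19 with library totals and -0.26 thinned, Sel1l -0.039 thinned, and, ranked by crypt markers, Hsp90b1 0.015, Ern1 0.070, Atf6 0.055 and Atf3 -0.19. With a rat left out, signs also turned within these ranges: Ddit3 -0.76 to 0.37, Hspa5 -0.097 to 0.23 and Xbp1 -0.11 to 0.040 for sham against placebo. They were Atf4 -0.41 to 0.11, Atf6 -0.38 to 0.010, Hsp90b1 -0.12 to 0.16, Hspa5 -0.25 to 0.10 and Xbp1 -0.17 to 0.20 for PL8177 against placebo. They were Atf6 -0.18 to 0.21, Ern1 -0.081 to 0.44, Hspa5 -0.25 to 0.031 and Xbp1 -0.16 to 0.21 for PL8177 against sham. None of these treatment values was past the threshold, and the cause was not tested. No paired analysis was possible between treatments because each rat had 1 treatment. Without the replicate block Atf3 lost its call between cell types (1.41, edgeR adjusted p = 0.0748). Depth limits Xbp1, Ddit3 and Dnajb9 everywhere and 6 members in T cell nuclei between treatments.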
